A study of Rattus norvegicus with 24 samples.

Results

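The genes described here encode SR proteins, hnRNPs, subunits of the SF3 and U2AF complexes, and Sm and other snRNP proteins. The others encode pre-mRNA processing factors (PRPF), the CLK kinases and numbered RBM proteins. All are called splicing genes below for short, although a symbol does not show that a gene, an RBM gene above all, acts in splicing. They were taken by symbol alone, as every listed gene whose symbol starts with Srsf, Hnrnp, Sf3a, Sf3b, Snrp, Prpf or U2af, is Clk1 to Clk4, or starts with Rbm and a digit. The rule found 92 genes of the 10797 listed in any table, and 91 of them were tested at every time (the other, Rbm41, is listed only at 2 weeks and did not reach the minimum mean). They are 4 CLK kinases, 10 SR proteins, 18 hnRNPs, 11 SF3 and U2AF genes, 10 Sm and snRNP genes, 12 PRPF genes and 27 RBM genes, of which 26 were tested. RefSeq names 118 protein-coding genes of these symbols in the rat, and 26 of them are in no table, U2af2 and Snrpd3 among them, and are not analysed here.

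The samples were myocardium of Sprague-Dawley rats, sequenced as total RNA in 24 libraries. Mitral regurgitation (MR), a leak that sends blood back into the atrium, was made through a left thoracotomy by a hole in the mitral leaflet, and Sham animals were operated on with the leaflet left whole. All 5 Sham libraries came from 2 weeks after surgery. Of the MR libraries, 4 came from 2 weeks, and 5 came from each of the later times of 10, 20 and 40 weeks. Neither the age and sex of the rats nor the chamber sampled is labelled, and whether each library is a separate rat is not stated. The p-values therefore set group differences against the spread between these libraries, which may be technical. Since Sham was taken at 2 weeks only, time with MR and age of the rats cannot be told apart at 10, 20 and 40 weeks, and neither can the effect of the operation at those times.

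Splicing removes introns from pre-mRNA in the spliceosome, which is built from small nuclear RNAs wrapped in a ring of Sm proteins. SF3 and U2AF proteins recognise the end of the intron, PRPF proteins rearrange the complex, and SR proteins and hnRNPs bind the transcript and raise or lower the use of nearby exons. The CLK kinases phosphorylate SR proteins. In heart muscle the best known regulator is Rbm20, which controls the splicing of titin. The files give 1 value per gene and no isoform, so splicing itself was not measured, only the RNA level of the genes taken by symbol.

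Of the 92 genes, 87 had a promoter in RefSeq (GRCr8, the 250 bases before the start to 50 bases after it). The 250 bases upstream of 5 genes are shown, in the direction of the gene. They are Clk1 of the kinases, U2af1 and Snrpg of the genes lower at 40 weeks, Prpf8 of those higher, and Hnrnpc of the hnRNPs. These are examples, and their motifs need not be those of their groups. Capitals mark the motifs searched on both strands: the CCAAT box (CCAAT, or ATTGG on the other strand), the cAMP response element (TGACGTCA) and the TATA box (TATAAA).
Clk1 (chr9:67453181-67453430, minus strand): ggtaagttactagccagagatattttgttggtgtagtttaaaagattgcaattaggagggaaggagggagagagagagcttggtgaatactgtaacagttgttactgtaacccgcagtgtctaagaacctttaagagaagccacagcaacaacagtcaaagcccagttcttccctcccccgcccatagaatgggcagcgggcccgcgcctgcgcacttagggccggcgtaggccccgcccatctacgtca
U2af1 (chr20:9755095-9755344, minus strand): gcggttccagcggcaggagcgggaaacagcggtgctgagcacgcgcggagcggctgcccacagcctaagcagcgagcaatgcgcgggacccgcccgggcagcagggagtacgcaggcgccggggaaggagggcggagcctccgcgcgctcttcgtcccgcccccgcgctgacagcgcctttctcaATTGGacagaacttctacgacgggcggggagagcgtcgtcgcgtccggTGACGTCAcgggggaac
Snrpg (chr4:120369461-120369710, plus strand): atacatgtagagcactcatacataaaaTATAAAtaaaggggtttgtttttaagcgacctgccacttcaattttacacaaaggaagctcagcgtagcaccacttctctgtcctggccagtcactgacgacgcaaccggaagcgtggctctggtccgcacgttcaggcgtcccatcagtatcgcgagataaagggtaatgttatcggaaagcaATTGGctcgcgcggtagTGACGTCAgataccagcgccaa
Prpf8 (chr10:60829528-60829777, plus strand): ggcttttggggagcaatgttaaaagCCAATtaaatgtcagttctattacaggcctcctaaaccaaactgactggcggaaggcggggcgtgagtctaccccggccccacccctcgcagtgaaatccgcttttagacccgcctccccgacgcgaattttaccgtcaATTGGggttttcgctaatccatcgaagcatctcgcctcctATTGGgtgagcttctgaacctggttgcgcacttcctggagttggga
Hnrnpc (chr15:27282716-27282965, minus strand): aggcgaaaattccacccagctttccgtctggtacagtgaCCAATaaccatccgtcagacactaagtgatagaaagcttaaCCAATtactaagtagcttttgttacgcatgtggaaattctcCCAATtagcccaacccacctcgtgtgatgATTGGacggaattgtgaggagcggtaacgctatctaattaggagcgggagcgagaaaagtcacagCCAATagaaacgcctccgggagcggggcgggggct

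A CCAAT box was found in the promoters of 41 of the 87 genes (47.1%), against 35.4% of the 8453 listed genes with a promoter. Among the hnRNPs it was in 13 of 18, and Hnrnpc had the most copies, 5. By call at 40 weeks it was in 19 of 47 lower genes (40.4%), 2 of 3 higher and 20 of 37 not called (54.1%). The cAMP response element was in 3 of the 87 (3.45%, against 2.97% of listed genes). It began 17 bases before the start of U2af1, 22 before that of Snrpg and 29 before that of Rbm18. U2af1 and Snrpg were the only 2 of the 47 genes lower at 40 weeks that held it (4.26%). The ETS core CCGGAAGT was in 9 of the 87 (10.3%, against 7.19%), and the TATA box in 8 (9.2%, against 6.49%). Of the CLK genes only Clk4 held any of the motifs searched, a pair of CCAAT boxes. The longer consensus motifs of NRF1 and YY1 were in 2 and 0 of the 87, against 1.79% and 0.544% of listed genes. None of these motifs is contained in another, and a match says only that these letters are in the window.

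Levels below are normalised read counts. Libraries held 7.69 to 12.1 M reads on listed genes, of which 0.0562 to 0.107 M fell on the splicing genes. A gene was called higher or lower at an adjusted p under 0.05, from limma on log2(value + 1) with Benjamini-Hochberg adjustment over all genes tested, and fold changes are log2 values on that scale with their SE, which understates the change of low genes. Some libraries stood apart for these genes: replicate 1 of MR at 2, 10 and 20 weeks, and replicate 3 of MR at 40 weeks. MR at 2 weeks replicate 1 had 275 Sf3b1 reads on the joined scale (all 24 libraries rescaled together by the median of gene ratios), where the other MR libraries of that time had 90.6 to 111. In the same library Srsf11 was at 120 against 34.8 to 38.7 in the others. MR at 10 weeks replicate 1 was the highest of its group for Rbm39 (181, the others 111 to 125), Sf3b1 (193, the others 113 to 155) and Prpf18 (76.2, the others 36.2 to 55.0).

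Splicing genes did not pass the test at 2 weeks and 20 weeks, and 1 did at 10 weeks. At 2 weeks limma called 0 of 91 splicing genes, against 0% of all 10173 genes tested, and 1 was under an unadjusted p of 0.05 (U2af1l4, against 5.47% of all genes); edgeR and DESeq2 also called 0. At 20 weeks limma called 0 of 91, against 0.0698% of 10025 genes, with 2 under an unadjusted p of 0.05 (against 9.49% of all genes), and edgeR and DESeq2 again called 0. At 10 weeks Clk1 was the 1 splicing gene called, against 0.168% of 10096 genes (0.158% higher). There 12 of 91 were under an unadjusted limma p of 0.05, all of them higher, against 1212 of all genes (959 higher). Median fold changes of the 91 genes were -0.0439, 0.0924 and -0.0366 at 2, 10 and 20 weeks, beside -0.0658, 0.0647 and -0.00271 for all genes.

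**Figure D1:**
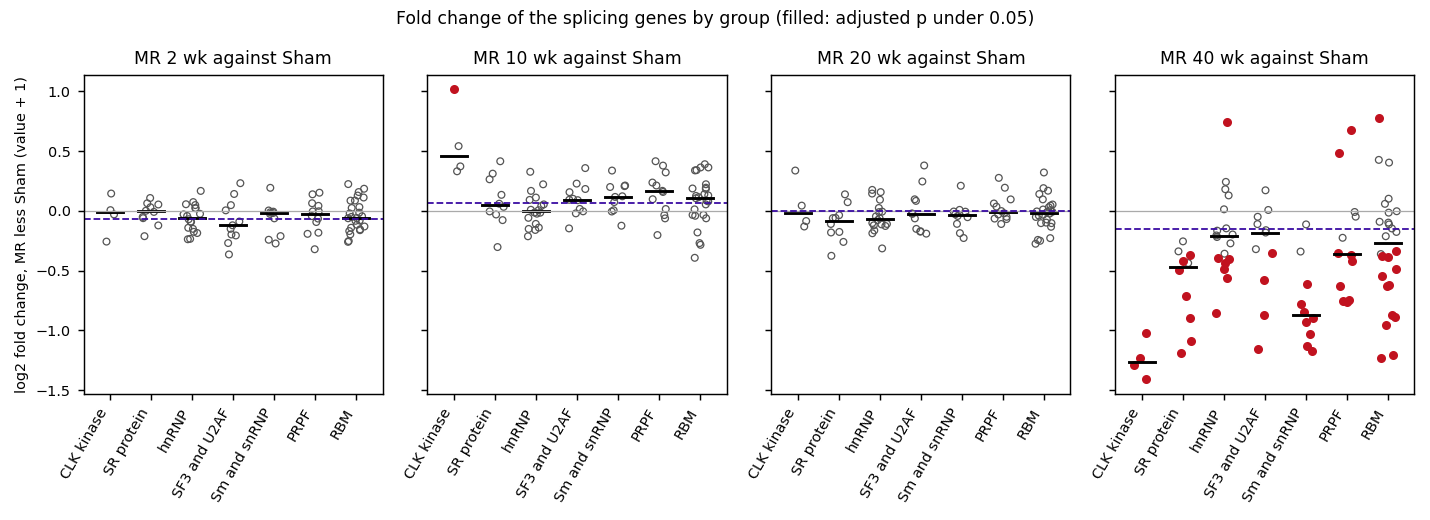
Log2 fold change of each splicing gene (91 per panel) for MR against Sham at 2, 10, 20 and 40 weeks, by gene group; filled points passed an adjusted p under 0.05, the short bar is the group median and the dashed line the median of all genes tested. Filled points number 0, 1, 0 and 52 from left to right, and at 40 weeks all 4 CLK genes and 8 of 10 Sm and snRNP genes are filled and below 0. At 40 weeks 30.9% of all genes tested were lower and 16.3% higher.

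Clk1 was higher than Sham at 10 weeks, and the other 3 CLK kinases lay above 0 without passing the test. Clk1, the kinase whose own transcript is kept in the nucleus with introns until it is needed, was at 108, 85.7, 92.7, 101 and 101 in the MR libraries and at 56.8, 66.3, 52.9, 34.8 and 34.7 in Sham. The groups did not overlap: the lowest MR library was above the highest Sham library. MR lay wholly above Sham in 4 of the 91 splicing genes, Clk1 among them, and in 218 of all 10096 genes. The log2 fold change of Clk1 was 1.02 ± 0.17 (SE, n = 5 and 5; limma, adjusted p = 0.0358), higher in 5 of 5 MR libraries. Clk3 differed by 0.54 ± 0.17 (adjusted p = 0.234), Clk2 by 0.37 ± 0.15 (adjusted p = 0.333) and Clk4 by 0.33 ± 0.19 (adjusted p = 0.505; limma, n = 5 and 5). The median of the 4 kinases was 0.457, beside 0.0647 for all genes. The call of Clk1 was lost after rescaling each library by the median of its gene ratios (0.941, adjusted p = 0.0756), with edgeR (0.908, adjusted p = 0.114) and when all 24 libraries were fitted together (0.95, adjusted p = 0.354), and it held with DESeq2 (adjusted p = 0.000954). It was also lost without MR replicate 1, 2, 3 or 4 and without Sham replicate 4 or 5, where the adjusted p was 0.0784 to 0.112.

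At 40 weeks 52 of the 91 splicing genes passed, 4 higher and 48 lower. Among all 10094 genes tested, 47.3% passed, 16.3% higher and 30.9% lower, so the share of splicing genes called (57.1%) lay near that of all genes, with 52.7% lower and 4.4% higher. In 42 of the 91 genes no MR library overlapped a Sham library, 1 higher and 41 lower, against 29.2% of all genes (9.06% higher, 20.2% lower). The median fold change of the 91 genes was -0.368, beside -0.149 for all genes. The scaling bears on this split: rescaling by the median ratio moved the median of all genes by 0.138. After it, 9 of the 91 splicing genes were called higher and 35 lower. Of all 10077 genes tested, 2391 (23.7%) were then higher and 2196 (21.8%) lower. The median after rescaling was -0.219 for the splicing genes and -0.0104 for all genes. The higher share of all calls then was 52.1% in place of 34.5%. In bulk tissue, fewer cells of a type and less RNA per cell cannot be told apart.

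All 4 CLK kinases were lower at 40 weeks, with a median fold change of -1.26 on the deposited scale and -1.11 after rescaling, where all 4 were also called. Beside them, 30.9% of all genes were lower as deposited (median -0.149) and 21.8% after rescaling (median -0.0104). Clk1 (rn6 chromosome 9, 65296777 to 65307996) was at 16.7, 18.6, 29.6, 15.3 and 15 in MR and at 56, 64.6, 51.1, 35 and 33.9 in Sham. The groups did not overlap, and MR replicate 3 was the closest to Sham. Its fold change was -1.29 ± 0.21 (SE, n = 5 and 5; limma, adjusted p = 0.000444). Clk3 was at 22.5, 19.4, 26.6, 17.4 and 16.8 in MR and at 38.9 to 68.1 in Sham, a fold change of -1.23 ± 0.17 (limma, adjusted p = 0.000197). Clk2 was at 5.79 to 10.3 against 13.6 to 22.7, a fold change of -1.03 ± 0.17 (limma, adjusted p = 0.000531). Clk4 was at 2.95 to 5.74 against 9.95 to 17.9 (-1.41 ± 0.18, limma, adjusted p = 0.000165); its listed span overlaps other listed genes on both strands, Hnrnpab among them, and the counting by strand is not given in the sources used here, so its reads are uncertain.

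Of the Sm and snRNP genes, 8 of 10 were lower at 40 weeks and 0 higher, both before and after rescaling, with a median of -0.872 (-0.752 rescaled). Among all genes 30.9% were lower and 16.3% higher as deposited (median -0.149), and 21.8% and 23.7% after rescaling. Snrpf, a subunit of the Sm ring, was at 13.2, 12.8, 14.2, 10.6 and 8.39 in MR and at 23.5, 28.8, 25, 26.1 and 21.4 in Sham. Every MR library was below every Sham library, and the fold change was -1.03 ± 0.14 (SE, n = 5 and 5; limma, adjusted p = 0.000234). The 8 were Snrpc of the U1 snRNP (-1.18), Snrpg (-1.13), Snrpf, Snrpd1 (-0.93), Snrpd2 (-0.90), Snrpe (-0.85), Snrpa1 (-0.78) and Snrpb2 (-0.61). Snrpg and Snrpe had mean levels under 1 in MR (0.592 and 0.805), where log2(value + 1) shrinks the change. RefSeq names 10 pseudogenes of Snrpc and 8 of Snrpg, so reads shared with such copies leave these 2 genes uncertain. Snrpb, another Sm ring subunit, was at 36.7 ± 4.49 against 40.0 ± 6.86 (SD, n = 5 each) and did not pass (-0.11 ± 0.14, limma, adjusted p = 0.522).

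**Figure D2:**
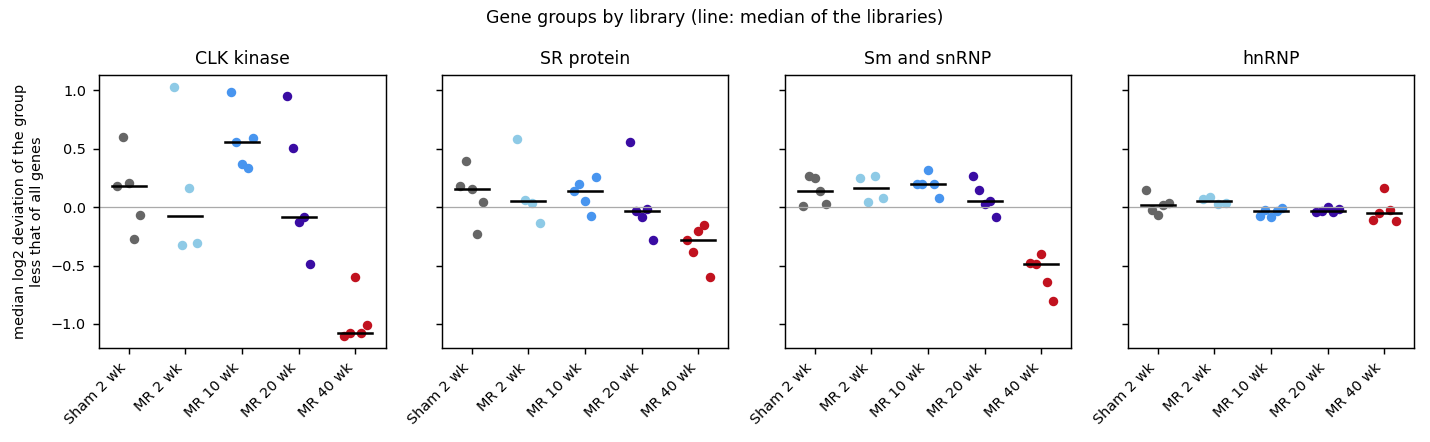
Median log2 deviation of a gene group from its genes' means over all libraries, less that of all genes, for each of the 24 libraries on the joined scale; points are libraries and lines the medians of the 5 groups. The CLK kinases lie at 0.338 to 0.99 at 10 weeks and at -1.1 to -0.602 at 40 weeks, the Sm and snRNP genes at -0.806 to -0.399 at 40 weeks, and the hnRNPs stay between -0.114 and 0.163 in all groups.

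Among the SR proteins, the targets of the CLK kinases, 7 of 10 were lower and 0 higher (median -0.467), and 4 of 10 were lower after rescaling. Of all genes, 30.9% were lower and 16.3% higher (median -0.149), and 21.8% and 23.7% after rescaling. Srsf11, an SR-related protein, was at 26.7, 19.2, 27.4, 25.2 and 18.9 in MR and at 57.1, 62, 62.6, 47 and 45.4 in Sham. The groups were far apart, with a fold change of -1.19 ± 0.15 (SE, n = 5 and 5; limma, adjusted p = 0.000156). Srsf9, Srsf6 and Srsf4 fell by 1.09, 0.90 and 0.71 on the log2 scale. Srsf1, the first SR protein described, was at 63 to 75.2 in MR and 80.5 to 105 in Sham (-0.42 ± 0.12, limma, adjusted p = 0.0102), but the call was lost after rescaling (-0.265, adjusted p = 0.0668), as were those of Srsf2 and Srsf3. Srsf5 did not pass (-0.44 ± 0.20, limma, adjusted p = 0.0867).

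The SF3 and U2AF genes split, with 4 of 11 lower (36.4%) and 0 higher, beside 30.9% and 16.3% of all genes. Their median was -0.182, near the -0.149 of all genes. U2af1, which reads the AG at the end of the intron, was at 11.8, 12.6, 17.6, 12.8 and 10.5 in MR and at 31.5, 35.1, 29.1, 28.2 and 26.4 in Sham. All MR libraries were below all Sham libraries, MR replicate 3 again closest, with a fold change of -1.16 ± 0.14 (SE, n = 5 and 5; limma, adjusted p = 0.000142). Sf3b1, which holds the branch point, was at 65.3, 55.6, 76.5, 70.2 and 63.1 against 166, 127, 117, 106 and 99.3 (-0.87 ± 0.15, limma, adjusted p = 0.000585). Sf3b5 (-0.58) and Sf3a3 (-0.36) also passed, Sf3a3 only before rescaling. After rescaling 3 were lower and 1 higher, beside 21.8% and 23.7% of all genes. The 1 higher was Sf3b2 (0.33 ± 0.12, limma, adjusted p = 0.0340). The other 7 of 11 did not pass on the deposited scale, with Sf3b3 at 25.1 ± 1.59 against 25.1 ± 2.87 (SD, n = 5 each; 0.01 ± 0.11, limma, adjusted p = 0.966).

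PRPF genes went both ways, with 7 of 12 lower and 2 higher, beside 30.9% and 16.3% of all genes. After rescaling 4 were lower and 2 higher, beside 21.8% and 23.7%. Prpf8, the large protein at the catalytic centre of the spliceosome, was at 68.6, 85.7, 58.7, 104 and 90.2 in MR and at 50.1, 48.1, 48.9, 42.6 and 59.4 in Sham. The MR values were higher except that replicate 3 lay just below the top Sham library, and the fold change was 0.68 ± 0.16 (SE, n = 5 and 5; limma, adjusted p = 0.00344). Its listed span overlaps that of another listed gene on the other strand. Prpf40b was lower (-0.75 ± 0.16, limma, adjusted p = 0.00207). Prpf38b and Prpf18 fell by 0.76 and 0.75 on the log2 scale.

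The hnRNPs lay near all genes, with 6 of 18 lower (33.3%) and 1 higher (5.56%), beside 30.9% and 16.3% of all genes. Their median was -0.213, beside -0.149. After rescaling 4 were lower and 3 higher with a median of -0.0587, beside 21.8% and 23.7% of all genes. Hnrnpul2, a relative of the scaffold protein Hnrnpu, was at 39.7, 37.8, 30.8, 40.4 and 44.7 in MR and at 23.2, 19.2, 17.5, 24.5 and 30.1 in Sham. The groups did not overlap, with replicate 3 of MR next to the top Sham library, and the fold change was 0.75 ± 0.15 (SE, n = 5 and 5; limma, adjusted p = 0.00158). Hnrnph1 was the lowest by fold, at 40.2 to 62.4 against 80.9 to 112 (-0.86 ± 0.15, limma, adjusted p = 0.000551), and its listed span lies within that of Hnrnpab. Hnrnpk, which binds C-rich RNA, was at 65.4 to 88 against 98.9 to 118 (-0.56 ± 0.12, limma, adjusted p = 0.00223). Hnrnpl, a regulator of exons with CA repeats, passed before rescaling only (-0.40 ± 0.16, limma, adjusted p = 0.0465; -0.243 and 0.156 rescaled). Hnrnpa1 was at 36.5 ± 7.82 against 43.8 ± 5.49 (SD, n = 5 each) and did not pass (-0.27 ± 0.15, limma, adjusted p = 0.148); RefSeq names 51 pseudogenes of it, so its reads are uncertain.

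Of the 26 RBM genes, 12 were lower (46.2%) and 1 higher, beside 30.9% and 16.3% of all genes. After rescaling 8 were lower and 3 higher, beside 21.8% and 23.7%. Rbm3, known for rising in the cold, was at 14.4, 18, 23.7, 17 and 11.4 in MR and at 52.7, 40.8, 48.5, 36.6 and 26.7 in Sham. The groups did not overlap, although Sham replicate 5 was close to MR replicate 3, and the fold change was -1.23 ± 0.20 (SE, n = 5 and 5; limma, adjusted p = 0.000439). Rbm5, a splicing regulator of the death receptor Fas, was at 24.9, 23.9, 22.4, 19.7 and 18.2 against 49.5, 67.6, 63.1, 43 and 38.7 (-1.20 ± 0.16, limma, adjusted p = 0.000195). Rbm25, Rbm8a of the exon junction complex and Rbm39 fell by 0.95, 0.89 and 0.87 on the log2 scale. The listed span of Rbm39 overlaps other listed genes on both strands, Rbm12 among them, so its reads are uncertain. Rbm33 was the 1 RBM gene called higher, at 18.1, 15.9, 12.7, 15.2 and 19 against 10.8, 7.6, 6.69, 6.97 and 14.6 (0.78 ± 0.19, limma, adjusted p = 0.00481), with Sham replicate 5 inside the MR range.

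The RBM genes best known in heart and muscle had smaller differences than Rbm3 and Rbm5, and the calls of Rbm20 and Rbm38 depended on the scaling. Rbm20 was at 96.6 ± 23.2 in MR and 72.5 ± 13.7 in Sham (SD, n = 5 each) and did not pass on the deposited scale (0.40 ± 0.17, limma, adjusted p = 0.0702), but it did after rescaling (0.561, adjusted p = 0.0117). Rbm24, a splicing regulator of striated muscle, was at 82.6 ± 15.1 against 84.1 ± 18.6 (SD, n = 5 each; limma, adjusted p = 0.950), and the sign of its difference depended on the scaling (-0.02 as deposited, 0.142 rescaled). Rbm38, which acts in muscle differentiation, was at 73.2 ± 8.87 against 95.8 ± 15.8 (SD, n = 5 each; -0.38 ± 0.14, limma, adjusted p = 0.0420) and lost its call after rescaling (-0.219, adjusted p = 0.164).

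**Figure D3:**
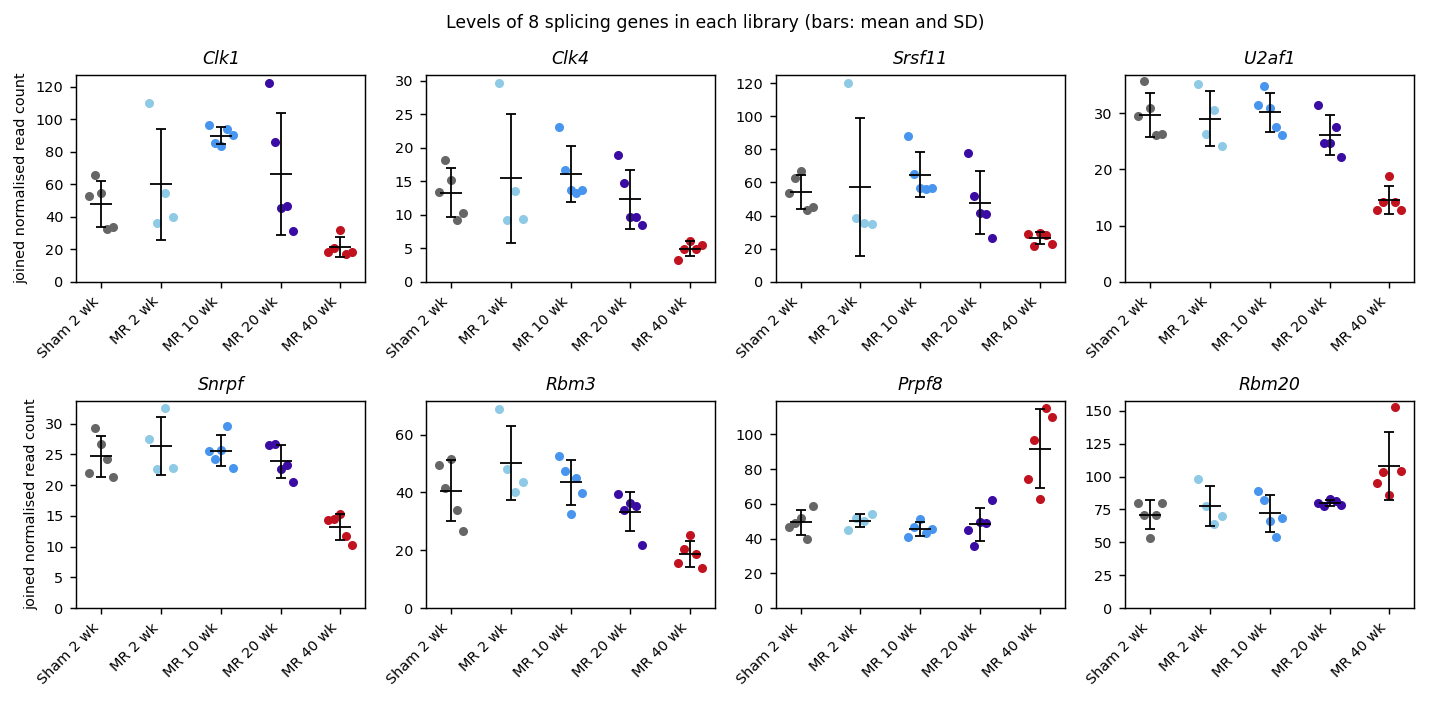
Level of 8 splicing genes in each library on the joined scale (normalised read count, axis from 0), by group; points are libraries, bars the mean and SD. Clk1, U2af1 and Snrpf are lowest at 40 weeks and Prpf8 highest, and at 2 and 20 weeks the spread of Clk1 is set by 1 or 2 libraries far above the rest.

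MR at 40 weeks was also set against the earlier MR times, contrasts whose fold changes use MR levels only, although the Sham libraries entered the joined scale and the estimate of spread. On the joined scale 45 of 91 splicing genes differed from MR at 2 weeks (9 higher, 36 lower, against 45.7% of 9984 genes), 53 from 10 weeks (16 higher, 37 lower, against 54.2%) and 42 from 20 weeks (9 higher, 33 lower, against 38.8%). Of all genes, 21.3%, 26.2% and 17.6% were lower and 24.3%, 28.1% and 21.3% higher. The first count fell to 25 without MR at 2 weeks replicate 1, and the last to 27 without MR at 40 weeks replicate 5. All 4 CLK kinases were lower in each of the 3, with medians of -1.13, -1.52 and -1.12, and the Sm and snRNP genes were lower in 8, 9 and 8 of 10.

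Clk1 illustrates the course. On the joined scale it was at 32.4 to 65.7 in Sham, at 109.7, 35.9, 54.5 and 39.5 in MR at 2 weeks, at 83.3 to 96.2 at 10 weeks, at 122, 86.0, 45.3, 46.7 and 31.3 at 20 weeks, and at 18.1, 21.1, 31.7, 17 and 18.2 at 40 weeks. The 20-week libraries spread over nearly the whole range of the other groups, and all but 1 of the 40-week libraries lay below every other library. Between 40 and 20 weeks Clk1 differed by -1.46 ± 0.30 (SE, n = 5 and 5; limma, adjusted p = 0.000544), although the highest 40-week library, replicate 3, was just above the lowest 20-week one. U2af1 and Snrpf fell by 0.80 and 0.82 on the log2 scale between the same times, and Hnrnpul2 and Prpf8 were higher by 1.04 ± 0.16 and 0.90 ± 0.15 (limma, adjusted p = 3.16e-05 and 8.23e-05). The other large falls with a mean above the median were those of Clk4 (-1.13), Clk3 (-1.11), Rbm5 (-0.997), Rbm3 (-0.79) and Clk2 (-0.79). Other rises with such a mean were those of Hnrnpul1 (0.40), Hnrnph2 (0.39), Sf3b2 (0.36) and Hnrnpr (0.27). Rbm33, whose mean was below the median, was higher by 0.93. Rbm20 was higher at 40 than at 20 weeks, at 94.9, 103, 86.1, 153 and 105 against 77.3 to 82.6 (0.41 ± 0.15, limma, adjusted p = 0.0354), and no 40-week library was as low as any 20-week one.

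Counting over the 4 comparisons of MR at 40 weeks (Sham and the 3 earlier MR times), which share the 40-week libraries, 27 splicing genes were lower in all and 4 higher in all, Prpf8, Hnrnpul2 and Rbm33 among them. These are 29.7% and 4.4% of the 91, against 11.3% and 12.3% of the 9913 genes tested in all 4 comparisons. The 27 hold all 4 CLK kinases, 7 of 10 Sm and snRNP genes, 3 SR proteins (Srsf6, Srsf9 and Srsf11), U2af1, 4 PRPF genes, 2 hnRNPs (Hnrnph1 and Hnrnpk) and 6 RBM genes. No gene was called in opposite directions, and 23 (25.3%, against 30.1% of all genes) were called in none, 5 hnRNPs among them. Between the earlier MR times few passed: 0 of 91 from 2 to 10 weeks (against 1.37% of all genes; 10 under an unadjusted p of 0.05, against 15.2%; edgeR and DESeq2 0), 3 from 2 to 20 weeks (against 8.81%, 4.01% higher) and 0 from 10 to 20 weeks (against 0.01%; 10 under an unadjusted p of 0.05, against 15.2%; edgeR and DESeq2 0). The 3 were higher at 20 weeks: Prpf19 (69.1 ± 3.58 against 54.4 ± 6.0), Snrpb2 (14.3 ± 2.04 against 10.4 ± 0.922) and U2af1l4, a relative of U2af1 (13.5 ± 2.18 against 8.92 ± 1.38; SD, n = 5 and 4). Without MR at 20 weeks replicate 2, 3 or 4 none of these passed, and without MR at 2 weeks replicate 1 or 3 the count was 1. The listed span of U2af1l4 overlaps other listed genes on both strands, so its reads are uncertain.

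**Figure D4:**
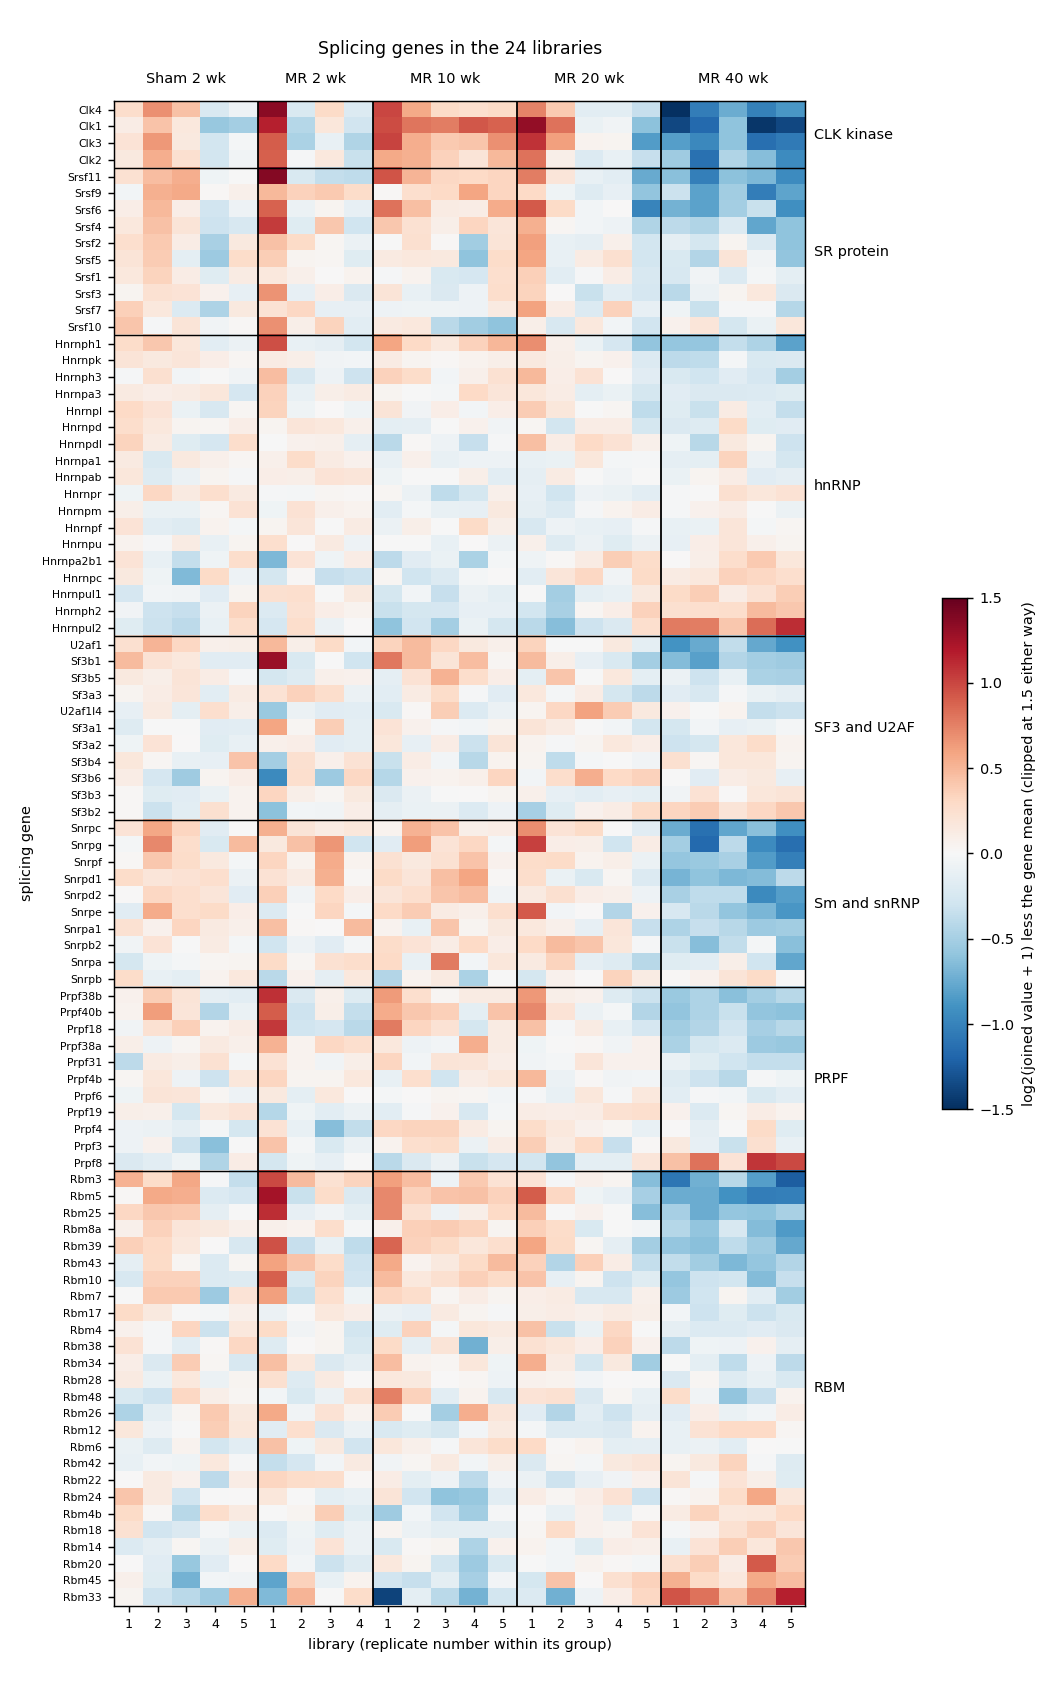
Log2(joined value + 1) of 90 splicing genes in the 24 libraries, less each gene's mean, with genes grouped by role and ordered by their fold change at 40 weeks; red is above and blue below the gene's mean. The MR 40-week columns are blue for the CLK kinases and most Sm and snRNP genes and red for Prpf8, Hnrnpul2 and Rbm33, and MR 2-week replicate 1 and MR 20-week replicate 1 are red for the CLK kinases.

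Other splicing genes were put in 2 lists by function, and on the deposited scale at 40 weeks more of them were called lower than higher. Of 51 measured genes of the spliceosome and snRNPs outside the rule, 2 were higher and 21 lower at 40 weeks (median -0.282), and of 57 other splicing regulators 8 were higher and 23 lower (median -0.283), beside 16.3% higher and 30.9% lower and a median of -0.149 for all genes. After rescaling the former list had 7 higher and 16 lower and the latter 15 higher and 20 lower, beside 23.7% and 21.8% of all genes. Against MR at 2, 10 and 20 weeks the 57 regulators had 13, 18 and 14 higher and 17, 18 and 15 lower. Against 10 weeks as many of them were higher as lower. The 51 spliceosome genes had 6, 7 and 5 higher and 16, 19 and 17 lower. Of all 9984 genes, 24.3%, 28.1% and 21.3% were higher and 21.3%, 26.2% and 17.6% lower in these comparisons. The smallest p-values belonged to Lsm7 (-1.16 ± 0.15), Lsm4 (-0.91 ± 0.13) and Cwc15 (-0.81 ± 0.12) in the former list, and to Tra2a (-1.34 ± 0.16), Luc7l (-1.47 ± 0.20) and Luc7l2 (-0.87 ± 0.13) in the latter (SE, n = 5 and 5). Of 12 measured genes whose transcripts Rbm20 is known to splice, 5 were higher and 1 lower (median 0.273). After rescaling 6 were higher and 0 lower (median 0.428). Among those higher as deposited was Ryr2, the calcium release channel (970 ± 236 against 448 ± 112, SD, n = 5 each, fold change 1.12 ± 0.22, limma, adjusted p = 0.00116). Ryr2 is also among the cardiomyocyte markers below. Camk2g was another (7.04 ± 1.46 against 2.92 ± 0.837, fold change 1.04 ± 0.17, limma, adjusted p = 0.000444). At 2, 10 and 20 weeks none of the genes of the 3 lists passed.

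Gene span and cell type markers were also read at 40 weeks against Sham, where 30.9% of all genes were lower and 16.3% higher. Longer genes tended to be higher: over 10094 genes the Spearman rank correlation of fold change with the listed span of the gene was 0.326, and over the 91 splicing genes it was 0.209 (a description across genes, which share the libraries). At 2, 10 and 20 weeks the correlations were 0.161, -0.0847 and -0.0184 over all genes. Over the splicing genes they were 0.173, 0.106 and -0.0119. The median span was 11.5 kb for the splicing genes called lower and 41 kb for the 4 called higher, beside 12.5 and 41.3 kb for all genes called lower and higher. Fibroblast markers had 5 of 10 lower and 1 higher (median -0.721; summed level 920 to 1310 in MR at 40 weeks, 1250 to 3360 in Sham), and macrophage markers 5 of 10 lower (median -0.593; 66.4 to 152 against 106 to 228). Endothelial markers had 5 of 10 lower and 1 higher (median -0.36; 622 to 844 against 722 to 1030). Cardiomyocyte markers, the defining genes of the labelled tissue, were abundant in every group (3 of 10 lower, 2 higher, median -0.23; 38200 to 57600 against 44600 to 54100). Of the adipocyte markers, 3 of 10 were measured and 2 of them were lower (median -0.578), and their sums did not overlap (200 to 323 against 355 to 592). Of the erythroid markers, 7 of 8 were measured and 0 passed (median -1.35; 676 to 7140 against 1440 to 15800). Smooth muscle and pericyte markers had 2 of 10 lower and 3 higher (median -0.29). Against MR at 20 weeks the marker falls were mostly absent. There fibroblast markers had 1 lower and 1 higher (median 0.195), and endothelial markers 2 lower and 4 higher (median 0.227). Macrophage markers had 0 called (median -0.153), and 2 of 3 adipocyte markers were lower (median -0.658). The part of gene span and of these cell types in the splicing result was not tested.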

How the data were processed

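RNA from 24 rat myocardium libraries was read from 4 tables, each with 1 MR time beside the same 5 Sham libraries. The deposited values are in unit signal: gene counts divided by 1 factor per library, since multiplying the factor back brought 97.4% to 97.5% of the values to a whole number of reads, within 0.1 read. Per the submitters' processing notes, Partek and build rn6 were used; aligner, annotation, counting, strand and scaling were not given in the sources used. Whether listed starts count from 0 or 1 is not stated.

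Sham and MR were compared within each table by limma 3.58.1 (R 4.3.3) on log2(value + 1), genes with a mean of at least 1, empirical Bayes with a mean trend, two-sided, Benjamini-Hochberg over all genes. MR times were compared in 1 fit of all 24 libraries, rescaled by median ratio. The fits were tested on simulated data. On recovered reads, edgeR 4.0.16 called 0, 5, 8 and 4621 genes over the 4 comparisons with Sham, in order of time, and DESeq2 1.42.0 called 65, 85, 93 and 4912. Read depth bears on counting error and on which genes are listed, since genes absent from a single library are not.

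The genes, lists and tests were chosen with earlier results of these data known. Named are, per comparison with Sham and for 40 against 20 weeks, up to 8 largest rises and falls among called genes with a mean at or above the median, a panel of 12 (Rbm20, Rbm24, Rbm38, Rbm3, Clk1, Srsf1, Srsf5, Hnrnpa1, Hnrnpl, Sf3b1, U2af1, Prpf8), and the 3 smallest p of 2 lists of other splicing genes; other names were chosen after their values were seen. The values of 1 PRPF gene are not reported here; it stays in the counts.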

Additional observations from a re-analysis of the deposited data

Results flagged for a closer look

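In 24 named splicing genes, each group of 4 or 5 libraries was checked on the joined scale for a library far from the rest. Of 120 checks, 11 found one. The cut-offs give about 1 in 20 for independent checks of normally distributed values. These checks share the libraries and used levels not put on a log scale, so no excess can be read from the count. At 2 weeks MR replicate 1 was far above the others for Sf3b1 (275, next 111) and Srsf11 (120, next 38.7). At 10 weeks MR replicate 1 was high for Rbm5 (76.4, next 62.6) and Srsf11 (88, next 65.3), replicate 2 was high for Hnrnpa1 (44.4, next 39.8) and replicate 4 low for Srsf5 (54, next 91.3). At 20 weeks MR replicate 1 was high for Clk2 (27.9, next 16.5). At 40 weeks MR replicate 3 was high for Clk1 (31.7, next 21.1), Hnrnpa1 (53, next 39.6) and U2af1 (18.9, next 14.2), and replicate 4 for Rbm20 (153, next 105).

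Levels of splicing genes differed between MR times in the fit of all 24 libraries. They were 3 genes between 20 and 2 weeks, and 45, 53 and 42 between 40 weeks and 2, 10 and 20 weeks. These are 3.3%, 49.5%, 58.2% and 46.2% of the 91, against 8.81%, 45.7%, 54.2% and 38.8% of all 9984 genes.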

How the results depend on the processing

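At 40 weeks against Sham the count of splicing genes called stayed within 1.5 times of 52 in every alternative run, and 36 to 52 of the 52 genes were called again, the 4 higher genes in each; the fewest were shared when all 24 libraries were fitted together. The median fold change of -0.368 became -0.215 with a pseudocount of 10, -0.219 with median-ratio rescaling, -0.193 with all 24 libraries, -0.218 with edgeR and -0.234 with DESeq2. Rbm24 at 40 weeks changed sign: 0.142 rescaled, 0.167 with all 24 libraries, 0.153 with edgeR, 0.139 with DESeq2, and from -0.128 to 0.0945 over the fits that each left out 1 library. At 10 weeks the count of 1 became 0 with rescaling, all 24 libraries and edgeR and ranged from 0 to 1 without 1 library, and the median of 0.0924 became 0.0172, 0.0259 and 0.024 in those fits and 0.0166 with DESeq2. Library weights gave 15 calls between 10 and 2 weeks, 7 between 20 and 2 weeks and 5 between 20 and 10 weeks; fitting only the groups compared gave 0 between 20 and 2 weeks. Without 1 library the counts ranged from 0 to 2 (10 and 2 weeks), 0 to 4 (20 and 2 weeks), 25 to 46 (40 and 2 weeks) and 27 to 44 (40 and 20 weeks). Hnrnpa1 between 40 and 20 weeks ranged from -0.138 to 0.0104 without 1 library, above 0 without MR at 20 weeks replicate 3 or MR at 40 weeks replicate 5. A fit with the replicate block, the number in the title, gave 0 calls at 2 weeks, as did the fit without it; whether that number pairs libraries is not given in the labels. Of the panel, 7, 5 and 4 genes changed sign in some alternative at 2, 10 and 20 weeks, and none of these were called. The cause of these changes was not tested. Genes absent from a single library are not listed, so depth limits what can be seen of low genes.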
